A study of Mus musculus with 4 samples.

Results

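The 10 genes examined here mark blood cells, macrophages, T cells and endothelial cells, and their open chromatin in mouse chondrocytes was described as a check of cell types other than the cartilage cell. They were Ptprc, Spi1, Csf1r, Cd68, Lyz2, C1qa, Cd3e, Pecam1, Cdh5 and Kdr, 10 of the 21883 protein-coding genes placed on GRCm38. All peaks in these genes or within 20 kb of them were taken, which gave 193 of the 455071 peaks of the series and, after overlapping peaks of different libraries were joined, 72 of 170558 sites. Chondrocytes had been isolated from the knee cartilage of newborn C57Bl/6 mice and were profiled by ATAC-seq, in which a transposase cuts accessible DNA. Passage 0 cells (P0) had been in culture for less than 24 hours and passage 8 cells (P8) had been passaged at each doubling in serum-containing medium, the culture that serves as a model of dedifferentiation, with 2 libraries for each passage and no treatment or genetic change in either. Each library was made from a bulk culture, and the labels do not say whether the libraries came from separate animals or cultures, so the spread between them may be technical.

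Cartilage has no vessels of its own, and blood and endothelial cells can reach a chondrocyte preparation from the neighbouring marrow, synovium and perichondrium. Ptprc encodes CD45, the phosphatase on the surface of all white blood cells, and Spi1 encodes PU.1, the transcription factor that directs myeloid development and binds at the enhancers of Csf1r, the receptor for macrophage colony-stimulating factor. Pecam1, Cdh5 and Kdr encode 2 junction proteins and the main receptor for vascular endothelial growth factor on endothelial cells.

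The P0 libraries, here named A and B because the deposited peak names carry no replicate number, held 145703 and 119974 peaks, and P8 libraries A and B held 89610 and 99784. The lowest background of each library, which reflects its depth, was 194 and 162 tags per 10 kb in P0 and 140 and 134 in P8, so the P0 libraries were deeper. Fold enrichment is the pileup of tags at a summit over the background around that peak, with 1 tag added to each, and its percentile is its rank among all peaks of the same library, where 50 is the median peak. Since a peak list holds only positions past the threshold of the peak caller, a gene without a peak was not detected at this depth rather than closed. In a bulk library, a few cells with an open site and many cells with a weakly open site cannot be told apart.

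The sequences around the start of 4 members show where the peaks fell at the promoters. Each runs 5′ to 3′ on the minus strand, from 250 bases before the RefSeq start (GRCm38.p6) to 50 bases after it. Capitals mark bases under a peak in all 4 libraries for Lyz2 (chr10:117282223-117282522) and Kdr (chr5:75978406-75978705), and bases under a peak in both P0 libraries for Cd68 (chr11:69666121-69666420). Cd3e (chr9:45009562-45009861), with no peak there, has no capitals.
Lyz2: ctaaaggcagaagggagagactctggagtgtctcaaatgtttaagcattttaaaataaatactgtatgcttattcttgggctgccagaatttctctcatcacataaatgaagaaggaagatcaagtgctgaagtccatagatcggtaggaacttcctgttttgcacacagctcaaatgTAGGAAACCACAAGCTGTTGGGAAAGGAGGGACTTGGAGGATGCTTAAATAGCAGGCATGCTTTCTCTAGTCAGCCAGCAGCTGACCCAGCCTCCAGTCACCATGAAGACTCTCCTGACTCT
Kdr: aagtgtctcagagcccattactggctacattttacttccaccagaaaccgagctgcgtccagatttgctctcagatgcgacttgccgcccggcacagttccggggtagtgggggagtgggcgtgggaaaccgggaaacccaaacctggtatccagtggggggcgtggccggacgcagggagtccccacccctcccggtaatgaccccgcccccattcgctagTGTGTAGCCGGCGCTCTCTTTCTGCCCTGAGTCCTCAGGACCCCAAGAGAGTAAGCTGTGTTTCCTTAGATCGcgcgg
Cd68: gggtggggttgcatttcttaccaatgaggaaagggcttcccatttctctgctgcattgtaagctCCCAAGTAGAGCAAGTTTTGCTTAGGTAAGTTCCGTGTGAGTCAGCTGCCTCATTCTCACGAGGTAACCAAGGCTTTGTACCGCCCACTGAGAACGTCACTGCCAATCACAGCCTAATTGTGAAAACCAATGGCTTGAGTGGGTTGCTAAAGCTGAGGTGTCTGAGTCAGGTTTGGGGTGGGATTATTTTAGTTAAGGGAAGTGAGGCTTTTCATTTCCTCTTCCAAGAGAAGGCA
Cd3e: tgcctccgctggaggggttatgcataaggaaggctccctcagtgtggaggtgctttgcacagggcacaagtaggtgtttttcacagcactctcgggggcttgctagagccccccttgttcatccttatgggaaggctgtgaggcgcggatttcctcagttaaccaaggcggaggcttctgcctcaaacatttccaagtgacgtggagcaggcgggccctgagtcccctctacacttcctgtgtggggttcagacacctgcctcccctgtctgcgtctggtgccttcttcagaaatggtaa

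At the Lyz2 start the peaks covered 193 and 140 of the 300 bases in P0 and 122 and 129 in P8, so that 122 bases were shared by all 4 libraries. At the Kdr start 221 and 170 bases were covered in P0 against 73 and 81 in P8, and the 73 shared bases lay around the start itself. At the Cd68 start 236 and 282 bases were covered in P0 and 0 in both P8 libraries. The Cd68 capitals hold 2 matches to TGANTCA, the AP-1 motif. It occurs on either strand in 7.81% of 32851 RefSeq promoters of this length, those of chromosome 18 left out. The ETS core AGGAAG, the type of motif that PU.1 binds, was found 2 times in the Lyz2 sequence and 2 times in that of Cd3e, in neither case under a peak shared by all libraries, and it occurs in 35.4% of these promoters. Searched in the same way, the GATA motif AGATAA and TATAAA matched none of these 4 sequences and occur in 11.2% and 13.6% of promoters.

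Few members had a peak at their own start. A peak within 1 kb of the start was found for 4 members in each P0 library and for 3 in each P8 library. These shares of 40 and 30% compare with 67.9 and 66.5% of all protein-coding genes in P0 and 61.0 and 62.1% in P8. Spi1, Lyz2 and Kdr had it in all 4 libraries, or 3 of 10 members against 59.5% of all genes. Starts were known from the promoter table for 5 members (Ptprc, Cd68, Lyz2, Cd3e and Kdr), of which 2 had a start peak in all libraries, against 59.8% of the 17491 genes with such a start. For the other 5, both ends of the gene were counted. No library had a peak within 1 kb of a start of Ptprc or Cd3e, or of either end of Csf1r, C1qa, Pecam1 or Cdh5.

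In the number of peaks, the wider windows looked more like the rest of the genome. All 10 members had a peak within 20 kb in all 4 libraries, against 81.4% of all genes. The windows held 8.75 and 7.0 peaks per 100 kb in P0 and 4.04 and 6.19 in P8, close to the 8.60 and 7.30 in P0 and 5.65 and 6.31 in P8 around all genes, except in P8 library A. Their peaks were of middling strength, with median percentiles of 43.2 and 57.1 in P0 and 51.3 and 46.8 in P8, and fold enrichments from 2.54 to 15.4. In each library 5 or 6 member peaks passed the 90th percentile, or 9.23 and 11.5% of them in P0 and 16.7 and 13.0% in P8. The strongest peak of a member window had a median percentile of 86.7 and 75.7 in P0 and 86.5 and 91.6 in P8. Over all genes with a peak it was 92.4 and 91.6 in P0 and 89.0 and 89.9 in P8, so the members were lower except in P8 library B. Part of the peaks belonged to neighbours: of the 72 sites, 12 lay within 1 kb of an end of another gene and not at the start of the member, 26 elsewhere in the flanks, 28 inside the member and 6 at its own start.

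**Figure D1:**
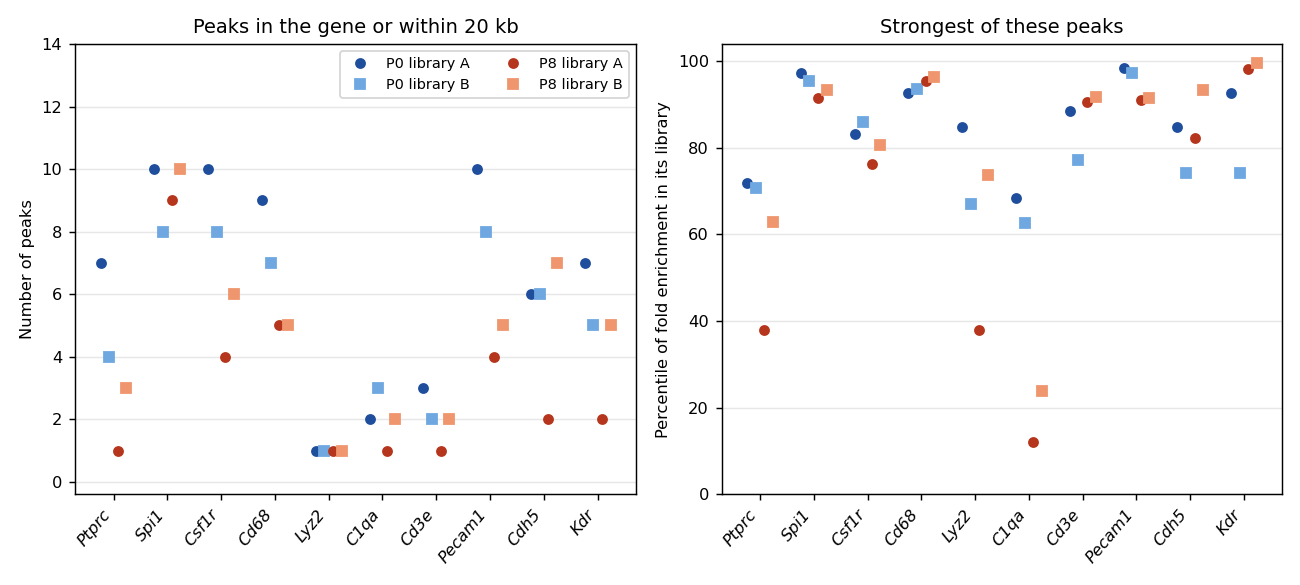
Number of peaks in each gene or within 20 kb of it (left) and the percentile of the strongest of them among all peaks of its library (right), with 1 point per library. Spi1 held 8 to 10 peaks and Lyz2 held 1 in every library, while Ptprc, Csf1r, Cd68 and Pecam1 had more peaks in both P0 libraries than in either P8 library.

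Ptprc (chr1:138062859-138175756) held 7 and 4 peaks in P0 and 1 and 3 in P8. The strongest of them was at percentiles 71.9 and 70.8 in P0 and 37.8 and 62.8 in P8. A single site inside the gene, 64.2 kb above its lower end, was found in all 4 libraries, with fold enrichments of 6.62 and 6.41 in P0 and 4.94 and 5.56 in P8. The pileup there was 15 and 13 tags in P0 and 9 and 10 in P8, below the median pileup of 16 and 15 tags in P0 and 13 and 14 in P8 over all peaks.

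Spi1 (chr2:91082374-91115759) held a similar number of peaks in all libraries, 10 and 8 in P0 and 9 and 10 in P8, and 8 of its 9 sites were found in all 4 libraries. The strongest lay inside the gene at chr2:91101424-91101787, 19.2 kb above the lower end, with fold enrichments of 13.7 and 13.3 in P0 and 9.89 and 11.1 in P8. It ranked at percentiles 97.3 and 95.3 in P0 and 91.4 and 93.4 in P8, which is among the stronger peaks of each library. Another site at the upper end of the gene reached 11.8 and 10.5 in P0 and 8.04 and 9.31 in P8, and at both sites the P0 values lay above the P8 values. Close to the lower end, 0.73 kb inside the gene, the peak was weak, at 4.31 and 6.42 in P0 and 4.35 and 5.13 in P8, and the passages overlapped. The site with the highest pileup in the window, 80 and 73 tags in P0 and 49 and 57 in P8, lay at the end of the neighbour Slc39a13, which encodes a zinc transporter, and not at Spi1.

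Csf1r (chr18:61105572-61131139) held 10 and 8 peaks in P0 and 4 and 6 in P8. Its site 9.0 kb below the lower end had fold enrichments of 9.18 and 10.3 in P0 and 4.64 and 6.13 in P8, and the ratio of the means, 1.81, was reached by 3.77% of all sites with a peak in the 4 libraries. A site 1.44 kb inside the lower end went the other way in its means without separating the passages, at 5.35 and 3.66 in P0 and 5.17 and 6.26 in P8. A further site, 16.3 kb above the upper end and inside the neighbour Hmgxb3, was at 7.45 and 7.32 in P0 and 7.42 and 8.47 in P8, which by percentile was lower in P0 (71.9 and 67.0) than in P8 (76.3 and 80.7). A peak that only the P0 libraries had, both of them, lay near the end of Pdgfrb, the receptor gene of mesenchymal cells that lies next to Csf1r.

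Cd68 (chr11:69664213-69666170), which encodes a lysosomal membrane glycoprotein used as a macrophage marker, is a short gene in a dense stretch. All 8 sites of its window lay within 1 kb of an end of Sox15, Mpdu1, Eif4a1, Senp3 or Tnfsf13, and the peaks at percentiles of 92.6 to 96.4 were at these neighbours. Its own start, shown above, had a peak in both libraries from P0 cells and in neither from P8 cells, with fold enrichments of only 3.62 and 4.55 at percentiles 11.1 and 24.6. The pileup of these peaks was 26 and 25 tags, above the median of 16 and 15 of all peaks of these libraries, so the pileup and the fold enrichment ranked them differently.

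Lyz2 (chr10:117277541-117282272), the lysozyme gene of macrophages and neutrophils, held a single peak in every library, and it lay at the start. The fold enrichment was 9.52 and 7.32 in P0 and 4.94 and 7.58 in P8, and the percentile was 84.8 and 67.0 in P0 and 37.8 and 73.8 in P8, so the passages overlapped. The pileup was 22 and 15 tags in P0 and 9 and 14 in P8, compared with medians of 45 and 40 in P0 and 25 and 27 in P8 over all gene starts with a peak. Lyz1, a close paralog, lies beside Lyz2, and how reads that match both were counted is not given in the sources used here.

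C1qa (chr4:136895916-136898844), which encodes a chain of complement C1q made by tissue macrophages, had no peak in the gene and no site in all 4 libraries. The nearest site, 1.75 kb below its lower end, was at 7.04 and 6.87 in P0 and 4.55 in P8 library B, with no peak in P8 library A. For Cd3e (chr9:44998735-45009663), which encodes a chain of the T cell receptor complex, none of the 3 sites lay in the gene. The site found in all 4 libraries, with fold enrichments of 10.3 and 8.70 in P0 and 9.69 and 10.5 in P8, was at the end of Cd3d, the gene of another chain of the same complex.

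The strongest sites of the endothelial genes lay more than 1 kb from a start or end, which also held for Spi1 and Csf1r. Of the endothelial genes, only Kdr had a start peak to compare. Pecam1 (chr11:106654213-106715281), the gene of the adhesion molecule CD31, held 10 and 8 peaks in P0 and 4 and 5 in P8 and none within 1 kb of either end. A site inside it, at chr11:106657873-106658494 and 3.97 kb above the lower end, had fold enrichments of 14.8 and 11.4 in P0 and 5.44 and 5.05 in P8. Its percentile was 98.5 and 90.3 in P0 and 49.3 and 36.1 in P8, and its pileup was 38 and 24 tags against 10 and 9. The ratio of the means, 2.50, was reached by 0.248% of all sites with a peak in the 4 libraries, and it was chosen after its values were seen. A site 7.74 kb above the upper end was also higher in both P0 libraries, at 13.5 and 14.4 against 9.82 and 10.5. A further site, 1.45 kb inside the upper end, was at 7.04 and 11.4 in P0 and 4.55 in P8 library B and had no peak in P8 library A.

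Cdh5 (chr8:104101613-104144504), which encodes VE-cadherin of endothelial junctions, held 6 and 6 peaks in P0 and 2 and 7 in P8, so that the P8 libraries lay on both sides of P0. The site 20.3 kb inside the gene had fold enrichments of 8.69 and 5.95 in P0 and 8.20 and 11.1 in P8, at percentiles 80.3 and 52.2 in P0 and 82.3 and 93.4 in P8. Its ratio of P0 over P8 was 0.76, and 4.85% of all sites with a peak in the 4 libraries had a ratio as low. The site 1.97 kb above the upper end was at 9.52 and 8.24 in P0 and 6.43 and 9.09 in P8, and the passages overlapped.

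Kdr (chr5:75932827-75979072) held 7 and 5 peaks in P0 and 2 and 5 in P8. The start peak shown above had fold enrichments of 7.01 and 6.41 in P0 and 4.94 and 5.05 in P8, at percentiles 67.6 and 57.9 in P0 and 37.8 and 36.1 in P8. The stronger site was chr5:75990229-75990629, upstream of the gene and 11.4 kb above its upper end, where P8 was higher, with 11.6 and 8.24 in P0 and 12.8 and 15.4 in P8. There the percentile was 92.7 and 74.2 in P0 and 98.2 and 99.5 in P8, and the last is the highest percentile of any member peak. The ratio of 0.70 was as low in 2.67% of all sites with a peak in the 4 libraries. The start and the upstream site of the same gene thus ranked the passages in opposite orders. Like the Pecam1 site, the Csf1r, Cdh5 and Kdr sites given such shares were picked after their values were seen. They have the most extreme ratios of the 25 member sites found in all libraries.

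**Figure D2:**
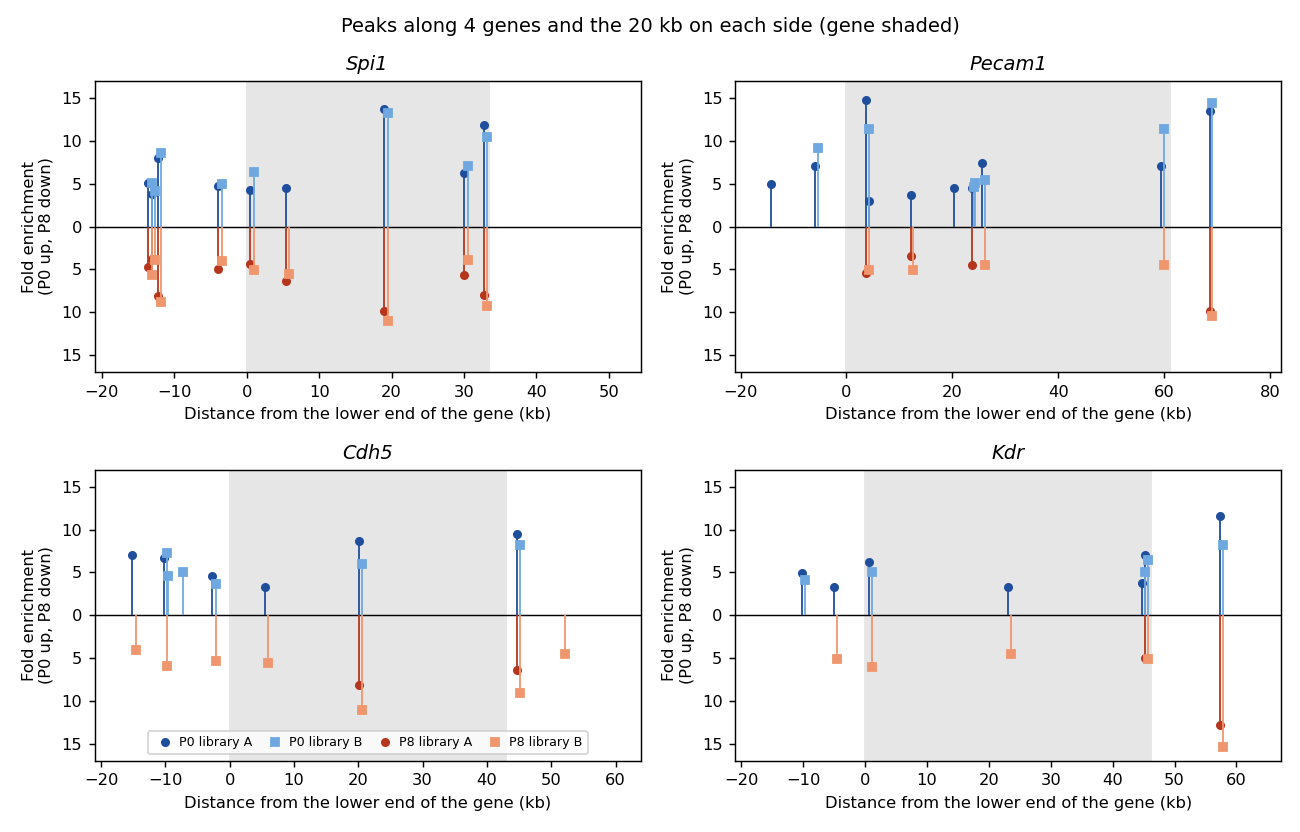
Peaks along Spi1, Pecam1, Cdh5 and Kdr, with the distance from the lower end of the gene in kb on the x axis and the fold enrichment on the y axis, P0 upward and P8 downward. Symbols of the 4 libraries are set slightly apart along the x axis, the gene is shaded, and the site upstream of Kdr reached 15.4 in P8 library B.

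Between the passages, the member windows followed the peak numbers of the whole libraries. The number of member peaks was 58.5 ± 9.19 in P0 and 38.0 ± 11.3 in P8 (mean ± SD, n = 2 each), a ratio of 1.54 beside a ratio of 1.40 for all peaks (exact two-sided permutation test, p = 0.333). Per 10000 peaks of the library, the members held 4.46 and 4.33 in P0 and 3.35 and 4.61 in P8. The means of 4.40 ± 0.0897 and 3.98 ± 0.892 (SD, n = 2 each) did not separate, since P8 library B was the highest of all (exact two-sided permutation test, p = 1). The median percentile of member peaks was 50.2 ± 9.82 in P0 and 49.0 ± 3.16 in P8 (SD, n = 2 each; exact two-sided permutation test, p = 1). With 2 libraries against 2, the smallest p that such a test can give is 0.333, so no difference between the passages could pass a threshold.

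By gene, both P0 libraries had more peaks than both P8 libraries for Ptprc, Csf1r, Cd68 and Pecam1, which is 4 of 10 members against 39.9% of the genes with a peak. The reverse order held for 0 of 10 members, against 4.78% of these genes. By site, 25 of the 72 (34.7%) were seen in P0 libraries only and 4 (5.56%) in P8 libraries only, against 40.3 and 11.7% of all sites. A peak in both P0 libraries and neither P8 library was found at 8 member sites (11.1%, against 17.1% of all sites), and the reverse at 0 member sites (against 1.82%).

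A peak in all 4 libraries was found at 25 member sites, or 34.7% against 32.4% of all sites. The percentile was higher in both P0 libraries than in both P8 libraries at 13 of these 25, against 39.1% of all such sites, and lower at 6, against 16.4%. Of the 25 sites, 8 lay at ends of neighbouring genes. Over the other 17, P0 was above P8 at 8 and below it at 3, the latter being the sites of Csf1r, Cdh5 and Kdr already described. A matching share over all sites away from gene ends was not computed, so these counts cannot be set against the genome. The median ratio of fold enrichment, P0 over P8, was 1.14 over the 25 member sites and 1.15 over all sites with a peak in the 4 libraries. The median percentile, averaged over the libraries of a passage, was 75.9 for the member sites and 74.8 for all such sites in P0, and 55.8 against 67.2 in P8.

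**Figure D3:**
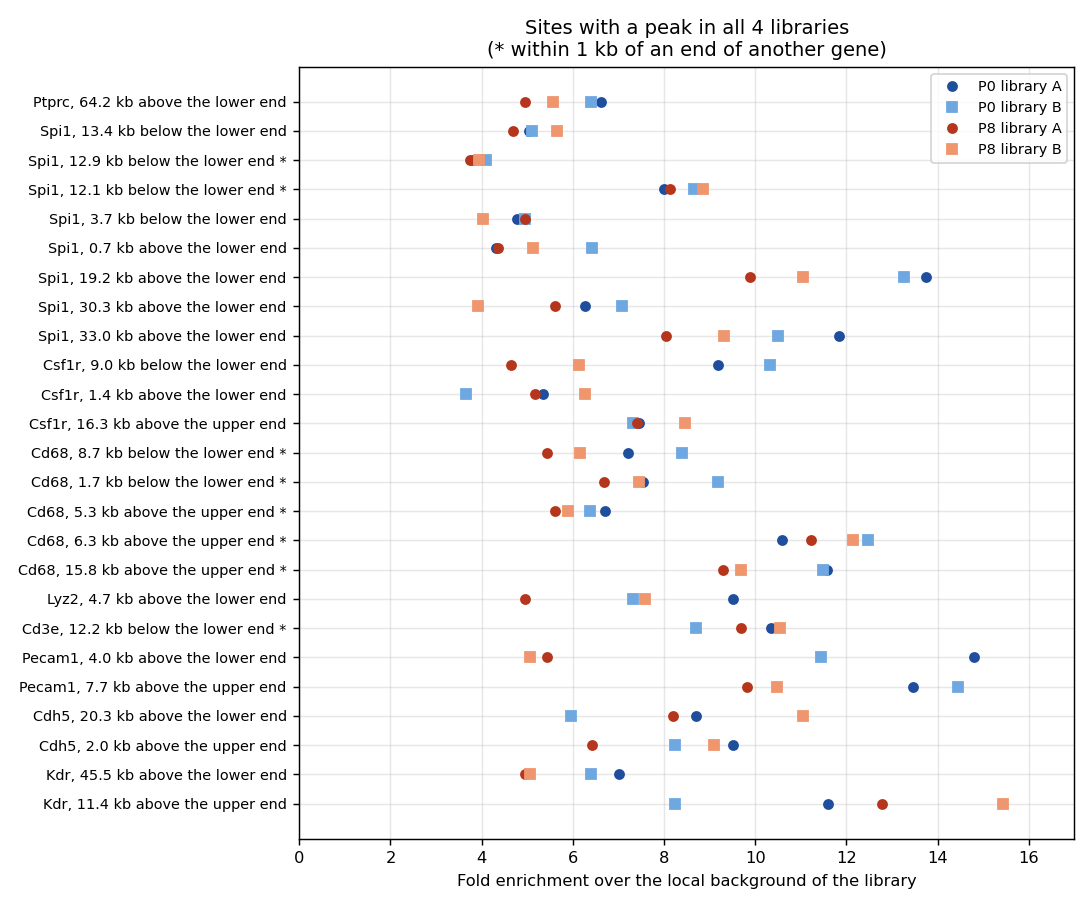
Fold enrichment of the 25 member sites with a peak in all 4 libraries, with 1 row per site named by its distance from the gene and 1 point per library. The site inside Pecam1 lay at 11.4 and above in P0 and at 5.44 and below in P8, and the site upstream of Kdr was higher in both P8 libraries.

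Longer lists of lineage genes put the members beside related cell types. Of 27 more blood and macrophage genes, 6 (22.2%) had a start peak in all 4 libraries, against 59.5% of all genes. No library had one for 19 of them (70.4%), against 31.1% of all genes. Among those with a start peak in any library, the stronger included Klf1 of red cell precursors, Coro1a, Cd14 of monocytes and Ikzf1 of lymphocytes. For Cd14 both ends of the gene were counted. The median percentile over all gene starts with a peak was 83.6 and 83.6 in P0 and 81.6 and 80.6 in P8. Coro1a, Cd14 and Ikzf1 lay below this median in every library, and Klf1 lay above it only in P0. Of 18 more endothelial genes, 10 (55.6%) had a start peak in all 4 libraries, and by library the share was 72.2 and 77.8% in P0 and 66.7 and 55.6% in P8, above that of all genes in all but P8 library B. The leading ones were Prox1 and Lyve1 of lymphatic vessels, Plvap, Egfl7 and the transcription factor gene Erg. Both ends of the gene were counted for Lyve1, Plvap and other genes of this list without a known start. The endothelial shares may thus include peaks away from a start. Of 5 osteoclast genes, 2 (40%) had a start peak in all libraries and Dcstamp, Ctsk, Acp5 and Calcr in at least 1. This left 20% with none in any library, against 31.1% of all genes. Of 7 skeletal muscle genes, Myod1 (14.3%) had a start peak in all 4, and both ends were counted for Dcstamp and Myod1. The shares with a start peak in all 4 libraries were highest for cartilage genes, at 10 of 13, fibroblast genes, at 7 of 9, and widely used genes such as Actb, at 8 of 8.

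The order of the lists by the height of their start peaks depended on the measure. Among genes with a start peak, the median pileup of the members was 24 and 20 tags in P0 and 9 and 14 in P8. Both ends of Spi1 were counted and the stronger peak, at the upper end, entered this median, at 43 and 32 tags in P0 and 21 and 23 in P8. The Spi1 peak near the lower end had 11 and 14 tags in P0 and 9 and 10 in P8. The median was 26 and 19.5 in P0 and 14 and 15 in P8 for the further blood and macrophage genes, and 20 and 15.5 in P0 and 11.5 and 14 in P8 for the further endothelial genes. Cartilage genes had 48 and 47 tags in P0 and 23 and 23 in P8, and all protein-coding genes 45 and 40 in P0 and 25 and 27 in P8. By fold enrichment, the median of the cartilage starts was 4.65 and 5.72 in P0 and 5.27 and 4.86 in P8. The members, with the upper end of Spi1 taken, were above this in 3 of 4 libraries, at 8.27 and 6.87 in P0 and 4.94 and 7.58 in P8. The further blood and macrophage genes were above it in all 4, at 7.42 and 6.68 in P0 and 5.53 and 6.60 in P8, and all protein-coding genes were at 9.28 and 9.85 in P0 and 8.06 and 8.47 in P8. The part that non-chondrocytes in the cultures had in these peaks was not tested.

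**Figure D4:**
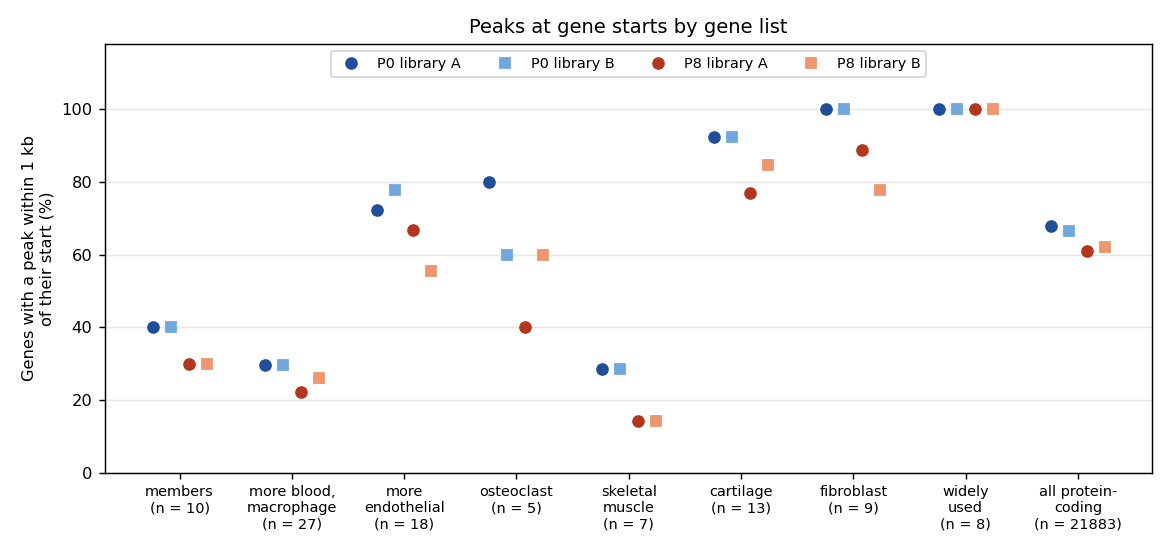
Share of genes in each list with a peak within 1 kb of their start, or of either end where no start was known, in percent, with 1 point per library. The members (40% in P0 and 30% in P8) and the further blood and macrophage genes lay below all protein-coding genes (61.0 to 67.9%) in every library, the further endothelial genes lay above them in all but P8 library B, and the cartilage genes lay above them.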

How the data were processed

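ATAC-seq of P0 and P8 chondrocytes was analysed from the peak tables of 4 libraries, 2 per passage. Bowtie2 and MACS2 were the aligner and peak caller, run by the authors for each library on its own, on mm10 per the submitters' processing notes, and tool versions are not given in the sources used here. The deposited peak tables give the signal as the pileup of tags at the summit, which depends on depth, and the fold enrichment of this pileup over local background. The authors also deposited the −log10 p-value and −log10 q-value that the peak caller gave each peak within its library. A further deposited table, which holds log2 fold changes, p-values and FDR of the authors' own comparison per site, was not used, and 0 columns of per-library values were set aside.

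Libraries were told apart by the prefix of the peak names. A peak was counted for a gene where it overlapped the gene or the 20 kb on either side by at least 1 bp, and peaks of different libraries that overlapped by at least 1 bp were joined into sites. Gene positions and promoter sequences were those of RefSeq on GRCm38.p6. The start was that of the promoter table, or both ends of the gene where that table holds none. A site within 1 kb of the start was a start peak. Where a site held several peaks of a library, the highest was taken. Values per library were compared by exact two-sided permutation tests, gene lists by counts and medians beside those of all genes. The members were named in full. Of the other lists, genes with a start peak in all 4 libraries or, for the blood, endothelial and osteoclast lists, in any were eligible, at most 5 by fold enrichment, and neighbours where a member site lay within 1 kb of their end. A gene that this rule names is not reported here. The members, lists and rules were chosen with earlier results of these data known. In simulated peaks with known positions, the scripts recovered 200 of 200 windows and 200 of 200 starts. The scripts ran in Python 3.11.15 with pandas 2.3.3, numpy 2.4.6 and scipy 1.17.1, and figures were drawn with matplotlib 3.10.9.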

Additional observations from a re-analysis of the deposited data

How the results depend on the processing

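The count of members with a peak in all 4 libraries was 10. It stayed at 10 at matched depth. A window of 50 kb and the omission of a library can only add members, and all were already counted, so these settings could not change it. It fell to 9 at a −log10 q of at least 3, to 8 with a window of 5 kb and to 7 in the gene body. Without peaks at ends of other genes it was 8, which removed Cd68 and Cd3e. The count with a start peak, 3, rose to 5 within 3 kb of the start and stayed at 3 in the other settings. The wider distance added Csf1r and Cdh5, for which both ends of the gene were counted. Csf1r entered by a site inside its lower end. Cdh5 entered only by the site 1.97 kb above its upper end, since the site 2.45 kb below its lower end had a peak in 3 libraries. At the shorter distance tried, Spi1 was kept only by its site at the upper end. For these genes the count may thus not describe starts.

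Member peaks per 10000, P0 over P8, were 1.11 and turned to 0.978 at a −log10 q of at least 3. Leaving out each library gave 0.954 to 1.31, the lowest without P8 library A. The median percentile, P8 minus P0, was −1.13 and ranged from −8.07 to 5.81 over the libraries left out, with 5.81 without P0 library B and 1.11 without P8 library B, so its direction rested on single libraries. It was −11.5 at a −log10 q of at least 3 and −7.85 without peaks at ends of other genes, and in both settings the passages did not overlap (exact two-sided permutation test, p = 0.333). In all, 36 of 41 alternatives kept the direction of the main value or a count within 1.5 times it. These include the settings above that could not lower a count. No exact p fell below 0.333, the smallest that 2 against 2 allows.

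No paired analysis was possible because the peak names number the libraries through both passages and carry no replicate number.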
